A study of Mus musculus with 14 samples.

Results

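Sterol and fatty acid synthesis, sterol sensing and sterol efflux were followed through 35 named genes in clonal mouse bone marrow stromal cells. The genes were taken by symbol from the deposited count table, which holds 34 of the 35 among its 23331 genes. The symbol Hmgcs1 was not matched, so that gene's RNA is not analysed here. The 34 genes fall by role into 7 of the mevalonate and squalene steps, 8 of the steps from lanosterol to cholesterol, 6 of sterol sensing and transport, 9 of fatty acid synthesis, elongation and desaturation, and 4 of efflux with its liver X receptors. All 34 passed the filter on low counts, Abcg1 and Nr1h3 only through the adipogenic-capable libraries, since among the 4 others Abcg1 stayed under 1 CPM and Nr1h3 reached it in O3 alone.

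Cells build cholesterol from acetyl units through mevalonate, squalene and lanosterol, and build fatty acids from the same units through malonyl units. Both pathways are switched on by the sterol regulatory element binding proteins (encoded by Srebf1 and Srebf2), which SCAP carries out of the endoplasmic reticulum when cholesterol is low and INSIG proteins hold back when it is high. Excess sterol is sensed by the liver X receptors (Nr1h3 for the alpha form and Nr1h2 for the beta form), which switch on the cholesterol exporters ABCA1 and ABCG1. Fat cells make and store fatty acids as triglyceride and hold a large share of the body's free cholesterol.

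The cells came from the marrow of adult C57Bl/6 mice carrying the irtTA-GBD*-TAg transgene, a large T antigen that dexamethasone and doxycycline switch on together. Every group shared this transgene, the period of immortalised growth and a final 3 days of culture with both inducers removed before RNA was taken. Clones were sorted by what they could form in separate differentiation assays: bone only (O), fat only (A), bone and fat (OA), bone and cartilage (OC), fat and cartilage (AC), or all of these (OAC). The O, A, OA and OAC groups had 3 libraries each, of which numbers 1 and 2 were single clones of different mice and number 3 was a pool of further clones. The OC and AC potentials had 1 pool each, OC3 and AC3. The series therefore held 10 adipogenic-capable libraries (A, AC, OA and OAC) and 4 non-adipogenic ones (O and OC). A p-value here therefore reflects how far such clones and pools differ among themselves, from few mice. RNA was taken from undifferentiated cultures in bulk, so fewer cells using a gene and less RNA per cell cannot be told apart.

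Total counts ran from 16888190 to 26076539 per library, and the 34 genes took 0.362% to 0.648% of them. Levels are given as CPM (the count relative to the TMM-scaled library total). All 8 marrow stroma markers were in the table, with sums of 17998 to 77810.2 CPM in the adipogenic-capable libraries and 54451 to 84415 CPM in the others, while the stromal marker Lepr stayed between 0 and 2.73 CPM. The stromal chemokine Cxcl12 ran from 1485 to 5125 CPM against 290.5 to 645 CPM and Pdgfrb from 443 to 1047 CPM against 297 to 369.5 CPM, without overlap. Collagen gene Col1a1 was at 4956 to 11231 CPM in the A group and 33793 to 55512 CPM in O. Summed osteoblast markers (5 of 5 in the table) were 98.0 to 3273 CPM against 263 to 4135 CPM, with medians of 314 and 2008 CPM. The blood marker Ptprc was between 0 and 0.0379 CPM, and the summed blood markers (5 of 10 in the table) reached 7.01 CPM at most in the adipogenic-capable libraries and 41.8 CPM in O1, of which Lyz2 made 37.2 CPM. O1 and OA2 stood apart by precision weights of 0.168 and 0.204, against 0.657 or more elsewhere. The rank correlation of a library's deviations with gene GC content was 0.51 in O1 and 0.65 in OA2, and reached -0.53 in OAC3, OC3 and AC3. It was -0.46 in O2, -0.43 in O3 and -0.42 in OA3, and between -0.19 and 0.34 in the rest. O1 also had the lowest summed level of genes of dividing cells, 84.6 CPM against 281 to 989 CPM elsewhere. Summed fat cell markers (8 of 9 in the table) were 63.9 to 230.3 CPM in the adipogenic-capable libraries and 41.9 to 112 CPM in the others. Among them the fat cell regulator Pparg ran from 10.4 to 55.2 CPM against 3.52 to 12.7 CPM. Fabp4 differed from Pparg, at 4.50 to 74.9 CPM against 26.8 to 85.3 CPM, and was highest in O2. The highest Adipoq level of each arm was 8.86 CPM in OAC2 and 3.05 CPM in O1. For Cidec it was 10.3 CPM in OA1 and 2.29 CPM in O1. Plin1, a droplet coat gene of mature fat cells, did not exceed 1.45 CPM anywhere and was at 0 in O2 and OC3. What part these markers or division had in the results below was not tested.

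Promoter sequences are shown for the genes on which the comparisons turn: Nsdhl and Nr1h3, which passed the test, the synthesis gene Mvd, the sensor Insig1 and the exporter Abca1. Each run is the 220 bases ahead of the gene's start in RefSeq (build GRCm38.p6), 5′ to 3′ on the strand of the gene. Capitals mark CCAAT, the NF-Y motif, which reads ATTGG when it lies on the other strand, and CACGTG, an E-box that reads the same on both.
Nsdhl (chrX:72918301-72918520, plus strand): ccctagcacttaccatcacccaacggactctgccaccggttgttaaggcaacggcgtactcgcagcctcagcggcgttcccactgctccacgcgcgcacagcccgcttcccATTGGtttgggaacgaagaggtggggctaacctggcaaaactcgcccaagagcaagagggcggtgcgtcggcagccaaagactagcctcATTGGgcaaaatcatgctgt
Mvd (chr8:122443423-122443642, minus strand): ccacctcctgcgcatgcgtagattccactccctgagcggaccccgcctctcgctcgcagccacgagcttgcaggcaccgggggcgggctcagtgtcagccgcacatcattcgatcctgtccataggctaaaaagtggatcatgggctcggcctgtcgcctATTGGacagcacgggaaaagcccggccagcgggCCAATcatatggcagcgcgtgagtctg
Insig1 (chr5:28071192-28071411, plus strand): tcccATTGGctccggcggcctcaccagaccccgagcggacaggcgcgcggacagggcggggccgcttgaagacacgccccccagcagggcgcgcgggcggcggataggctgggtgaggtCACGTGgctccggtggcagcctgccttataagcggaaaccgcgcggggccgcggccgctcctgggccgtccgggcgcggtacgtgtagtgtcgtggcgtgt
Nr1h3 (chr2:91195117-91195336, minus strand): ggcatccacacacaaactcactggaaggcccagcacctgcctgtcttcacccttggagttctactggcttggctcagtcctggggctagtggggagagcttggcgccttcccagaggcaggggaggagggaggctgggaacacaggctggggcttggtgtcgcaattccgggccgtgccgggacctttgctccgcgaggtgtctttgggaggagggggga
Abca1 (chr4:53159896-53160115, minus strand): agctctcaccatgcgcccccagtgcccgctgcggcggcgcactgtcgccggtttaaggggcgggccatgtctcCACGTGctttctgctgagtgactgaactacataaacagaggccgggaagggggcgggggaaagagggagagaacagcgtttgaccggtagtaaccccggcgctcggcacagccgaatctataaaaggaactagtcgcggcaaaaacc
The Nsdhl, Mvd and Insig1 runs hold CCAAT, the Insig1 and Abca1 runs hold CACGTG, and the Nr1h3 run holds neither. Nr1h3 has 2 promoters in that source, of which the first is shown.

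Motifs were counted in the 300-base RefSeq promoter windows of the 27 genes that could be matched, on both strands. A gene with more than 1 window was counted where any of them held the motif. CCAAT lay in 20 of the 27 genes (74.1%) and in 41.1% of 27025 mouse genes. CACGTG lay in 7 (25.9%), against 8.09% of all. The sterol regulatory element written as TCACNCCAC was found in 1, Hmgcs1 (3.7% against 1.44%). The liver X receptor repeat DR4, searched only as an exact pair of AGGTCA units 4 bases apart, was found in 0 (against 0.0148%). An occurrence of TCACNCCAC can share its closing bases with CACGTG. A match describes letters only, and a window without one says nothing about the factor.

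The question of the main comparison was whether these genes differ between clones that can and cannot form fat. Every non-adipogenic library could form bone, while the A and AC libraries could not. Fat potential was therefore partly confounded with bone potential. Of the 34 genes, 2 rose in the adipogenic-capable libraries by edgeR's quasi-likelihood test with Benjamini-Hochberg adjustment at 0.05, against 0.180% of the 13896 genes tested. They were Nr1h3 (ENSMUSG00000002108), which encodes liver X receptor alpha, and Nsdhl (ENSMUSG00000031349), which encodes a dehydrogenase that removes methyl groups from the sterol ring. The background for rises alone was 0.0936%, and no gene of the 34 fell, against 0.0864% of genes. At an unadjusted edgeR p under 0.05 stood 22 of the 34 with a higher level, against 6.98% of genes, and 1 with a lower level (Insig2), against 5.15%. The members' median log2 fold change was 0.55, beside -0.04 for all genes tested, and 31 of 34 had a positive value, against 45.9% of genes. Nr1h3 and Abcg1, which are among the 22, passed the filter on low counts only through the adipogenic-capable libraries. Their part in this count and in every later count that includes them is therefore no independent support.

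DESeq2, a second tool that called unchanged genes above its nominal rate on simulated counts, called 10 of the 34, against 3.51% of genes. Beside Nsdhl and Nr1h3 these were Mvd, Sqle, Insig1, Acaca, Acly, Fads1, Abca1 and Abcg1, all higher in the adipogenic-capable libraries. In 7 of the 34 the libraries of the 2 arms did not overlap, against 1.71% of genes: Mvd, Tm7sf2, Nsdhl, Insig1, Fads1 and Nr1h3 were higher in all 10 adipogenic-capable libraries (6, against 1.05%) and Insig2 was lower (against 0.662%). Without O1 alone 11 were higher without overlap (against 2.68%). Without O1 and OA2, 20 genes were higher at an unadjusted p under 0.05 (against 10.5% of genes) and 12 did not overlap (11 higher, against 3.04%, and 1 lower, against 2.25%).

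**Figure D1:**
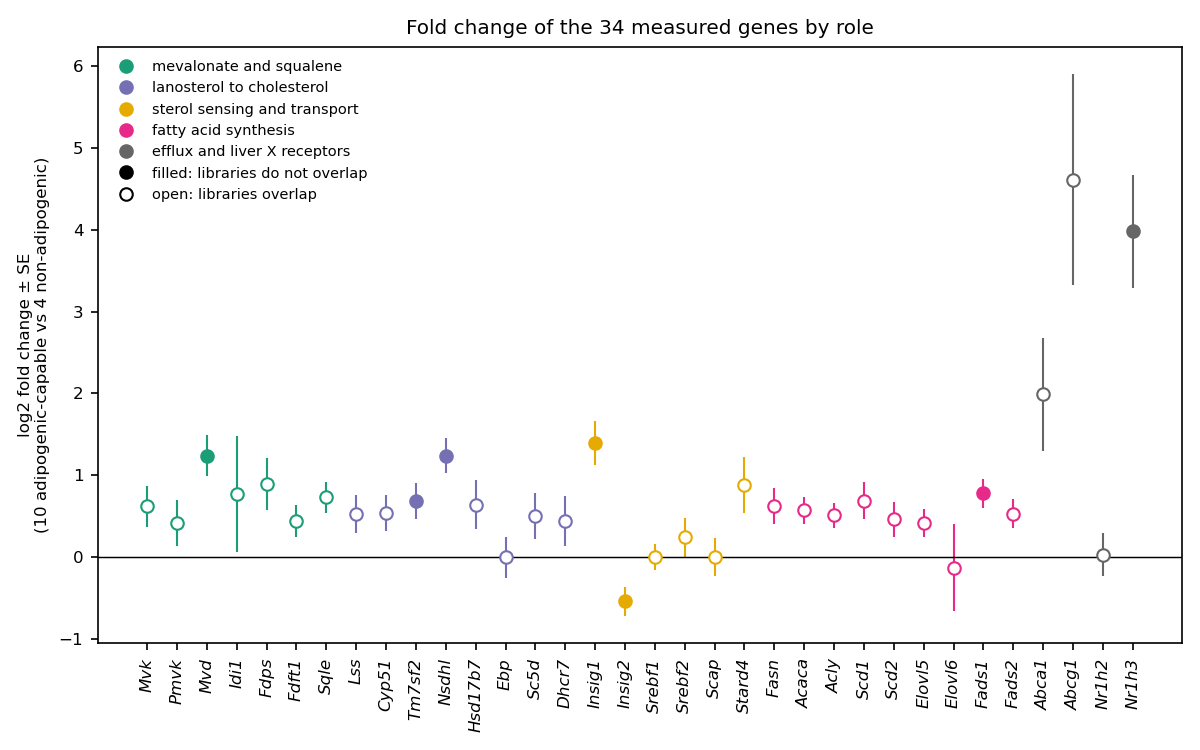
Log2 fold change (vertical axis) of each of the 34 genes between the 10 adipogenic-capable and the 4 non-adipogenic libraries, with bars of 1 SE from edgeR and colours for the role. Filled points are the 7 genes whose libraries do not overlap; the mevalonate and squalene genes lie between 0.42 and 1.24, Insig2 lies at -0.54, and Nr1h3, Abcg1 and Abca1 lie highest.

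The liver X receptor and exporter genes had the widest differences. Nr1h3 was at 0.382, 0.405, 1.39 and 0.606 CPM in O1, O2, O3 and OC3. In the adipogenic-capable libraries it ran from 2.06 CPM in OA3 through a median of 11.6 CPM to 27.7 CPM in A1. Every adipogenic-capable library was above every non-adipogenic one. The means were 11.2 ± 7.23 CPM (SD, n = 10) and 0.695 ± 0.472 CPM (SD, n = 4), and the log2 fold change was 3.98 ± 0.69 (SE), a 15.8-fold difference with an edgeR adjusted p of 0.0333. The related receptor gene Nr1h2 was at 75.3 ± 16.7 CPM (SD, n = 10) and 73.5 ± 41.1 CPM (SD, n = 4), a log2 fold change of 0.03 ± 0.26. That near-equality leaned on O1: Nr1h2 was at 134 CPM there and at 44.9, 66.2 and 49.5 CPM in O2, O3 and OC3.

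Abca1, which loads cholesterol onto apolipoproteins, was at 2.29, 1.82, 9.78 and 15.7 CPM in O1, O2, O3 and OC3. Across the adipogenic-capable libraries it ran from 6.75 CPM in OA2 through a median of 28.1 CPM to 59.3 CPM in A2. The arms overlapped, with 7 of 10 adipogenic-capable libraries above all 4 others, and the 3 OA libraries lay among the non-adipogenic values. The log2 fold change was 1.99 ± 0.69 (edgeR adjusted p = 0.241, DESeq2 adjusted p = 0.0366).

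Abcg1, which exports cholesterol to high-density lipoprotein, had no read in O1 and O2, where 3 reads would be 0.191 and 0.122 CPM, and was at 0.412 CPM in O3 and 0.606 CPM in OC3. Its adipogenic-capable values ran from 0.419 CPM in A3 through a median of 4.21 CPM to 15.8 CPM in OAC1. All but A3 of the 10 were above every non-adipogenic library. The fitted log2 fold change was 4.61 ± 1.29 (edgeR adjusted p = 0.146, DESeq2 adjusted p = 0.000551), a value that depends on the prior count because 2 libraries hold no read.

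**Figure D2:**
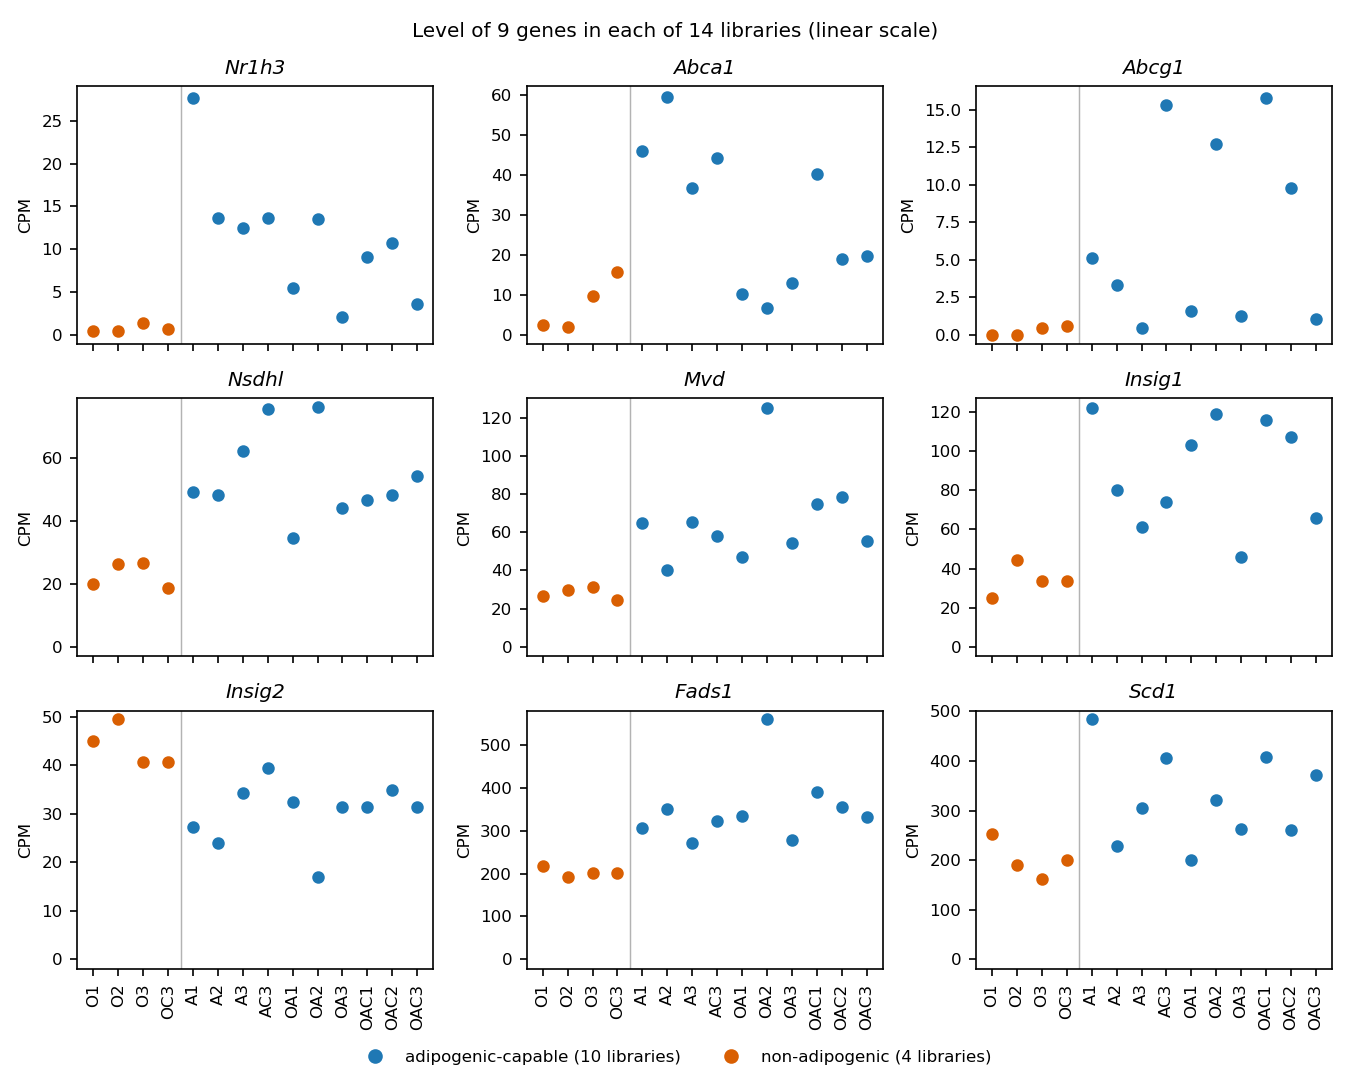
Level of 9 genes (CPM, linear vertical axes, 1 point per library) in the 4 non-adipogenic libraries, left of the line, and the 10 adipogenic-capable libraries, right of it. Nr1h3, Nsdhl, Mvd, Insig1 and Fads1 are higher in every library on the right, Insig2 is lower in every one, and Abca1, Abcg1 and Scd1 overlap.

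The early steps of cholesterol synthesis had higher means in the adipogenic-capable libraries throughout, with log2 fold changes of 0.42 to 1.24 over 7 genes and a median of 0.73. None passed the adjusted edgeR threshold, 5 had an unadjusted edgeR p under 0.05 (against 12.1% of all genes), and DESeq2 called 2 (against 3.51%). Mvd makes isopentenyl diphosphate by decarboxylation. It was at 26.8, 29.6, 31.6 and 24.6 CPM in O1, O2, O3 and OC3, and ran from 40.3 CPM in A2 through a median of 61.2 CPM to 125 CPM in OA2. The arms did not overlap, and the log2 fold change was 1.24 ± 0.25 (edgeR adjusted p = 0.0771, DESeq2 adjusted p = 0.000586). Sqle, the squalene epoxidase that is a control point of the later pathway, was at 97.6, 86.4, 100.5 and 82.1 CPM, against 98.8 CPM in A2 through a median of 162 CPM to 200.1 CPM in A1. Only A2 among the 10 lay within the non-adipogenic range, and the log2 fold change was 0.73 ± 0.19 (edgeR adjusted p = 0.115, DESeq2 adjusted p = 0.0148).

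Fdps, which joins isoprene units into farnesyl diphosphate, was at 60.0, 88.6, 98.6 and 69.6 CPM against 63.7 to 300.2 CPM with a median of 134 CPM. Mvk, the mevalonate kinase, was at 65.7, 41.6, 45.3 and 37.0 CPM against 47.9 to 128 CPM with a median of 71.8 CPM. Fdft1, the squalene synthase, was at 94.3, 71.1, 75.8 and 49.2 CPM against 77.0 to 156 CPM with a median of 95.2 CPM. All 3 overlapped between the arms, and OA2 held the highest value of each. Their log2 fold changes were 0.89 ± 0.32, 0.62 ± 0.25 and 0.44 ± 0.20, with edgeR adjusted p of 0.275, 0.331 and 0.390. Pmvk (means of 30.2 and 22.5 CPM) and Idi1 (2.53 and 1.47 CPM, with no read in O1) had an unadjusted edgeR p above 0.05.

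From lanosterol onwards 8 of 8 genes had a log2 fold change of 0.00 or more, 4 had an unadjusted edgeR p under 0.05 (against 12.1% of all genes), and 1, Nsdhl, passed the adjusted threshold (against 0.180%). Nsdhl was at 19.9, 26.2, 26.6 and 18.7 CPM in O1, O2, O3 and OC3. It ran from 34.7 CPM in OA1 through a median of 48.7 CPM to 76.1 CPM in OA2, with AC3 at 75.6 CPM. All 10 adipogenic-capable libraries were above the other 4. The means were 53.9 ± 13.5 CPM (SD, n = 10) and 22.8 ± 4.12 CPM (SD, n = 4), and Nsdhl rose by a log2 fold change of 1.24 ± 0.21, a 2.36-fold difference with an edgeR adjusted p of 0.0325.

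Tm7sf2, a sterol reductase acting beside Nsdhl, was at 16.4, 17.6, 16.4 and 16.6 CPM against 17.6 CPM in A2 through a median of 26.4 CPM to 39.0 CPM in OA2. The arms touched without overlapping, since A2 exceeded O2 by less than the printed precision (log2 fold change 0.68 ± 0.22, edgeR adjusted p = 0.198). Cyp51, the lanosterol demethylase, was at 76.2, 194, 139.8 and 149.8 CPM against 125 to 254 CPM with a median of 209.9 CPM. Lss, which closes the ring of lanosterol, was at 60.0, 103, 66.4 and 59.6 CPM against 63.8 to 155 CPM with a median of 111 CPM. Both overlapped, with log2 fold changes of 0.54 ± 0.22 and 0.53 ± 0.23 and edgeR adjusted p of 0.337 and 0.375.

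Hsd17b7, a ketosteroid reductase of the demethylation complex, was at 17.6, 47.4, 35.3 and 38.5 CPM against 37.1 to 105 CPM with a median of 47.5 CPM. Sc5d, the lathosterol desaturase, was at 19.3, 34.9, 33.9 and 39.0 CPM against 19.6 to 67.5 CPM with a median of 40.1 CPM. Dhcr7, the reductase of the last step in a branch of the pathway, was at 27.3, 24.7, 21.7 and 23.5 CPM against 18.1 to 71.3 CPM with a median of 29.3 CPM. These 3 overlapped widely and had edgeR adjusted p of 0.416, 0.518 and 0.634. The sterol isomerase gene Ebp had nearly the same mean in both arms, 84.0 ± 28.0 CPM (SD, n = 10) and 83.8 ± 11.4 CPM (SD, n = 4).

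The sensing genes did not move as a block: their median log2 fold change was 0.12, and values ran from -0.54 to 1.39. Insig1, a sterol sensor that is itself a target of the pathway, was at 25.0, 44.6, 33.5 and 33.4 CPM in O1, O2, O3 and OC3. It ran from 46.0 CPM in OA3 through a median of 91.5 CPM to 122 CPM in A1. The arms did not overlap, and the log2 fold change was 1.39 ± 0.27 (edgeR adjusted p = 0.0596, DESeq2 adjusted p = 0.000103). Its relative Insig2, whose protein does the same work but whose gene is controlled differently, was at 45.0, 49.6, 40.7 and 40.7 CPM against 16.9 CPM in OA2 through a median of 31.5 CPM to 39.4 CPM in AC3. Here every adipogenic-capable library lay below every other, with a log2 fold change of -0.54 ± 0.18 (edgeR adjusted p = 0.218, DESeq2 adjusted p = 0.0772).

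Levels of different genes can be set beside each other only per length of transcript, as RPKM (the count scaled by exonic length and by library size). On that scale the ratio of Insig1 to Insig2 was 0.728, 1.18, 1.08 and 1.08 in O1, O2, O3 and OC3, and 1.92 to 9.23 with a median of 4.10 in the adipogenic-capable libraries, lowest in OA3 and highest in OA2. The ratio of Nr1h3 to Nr1h2 was 0.00382 to 0.0280 in the non-adipogenic libraries and 0.0487 to 0.460 in the others. Neither ratio overlapped between the arms, and Nr1h2 exceeded Nr1h3 in all 14 libraries. The ratios of Srebf1 to Srebf2 (0.229 to 0.424 against 0.180 to 0.424) and of Scd1 to Scd2 (0.200 to 0.330 against 0.153 to 0.399) overlapped. These ratios are descriptions and were given no test.

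**Figure D3:**
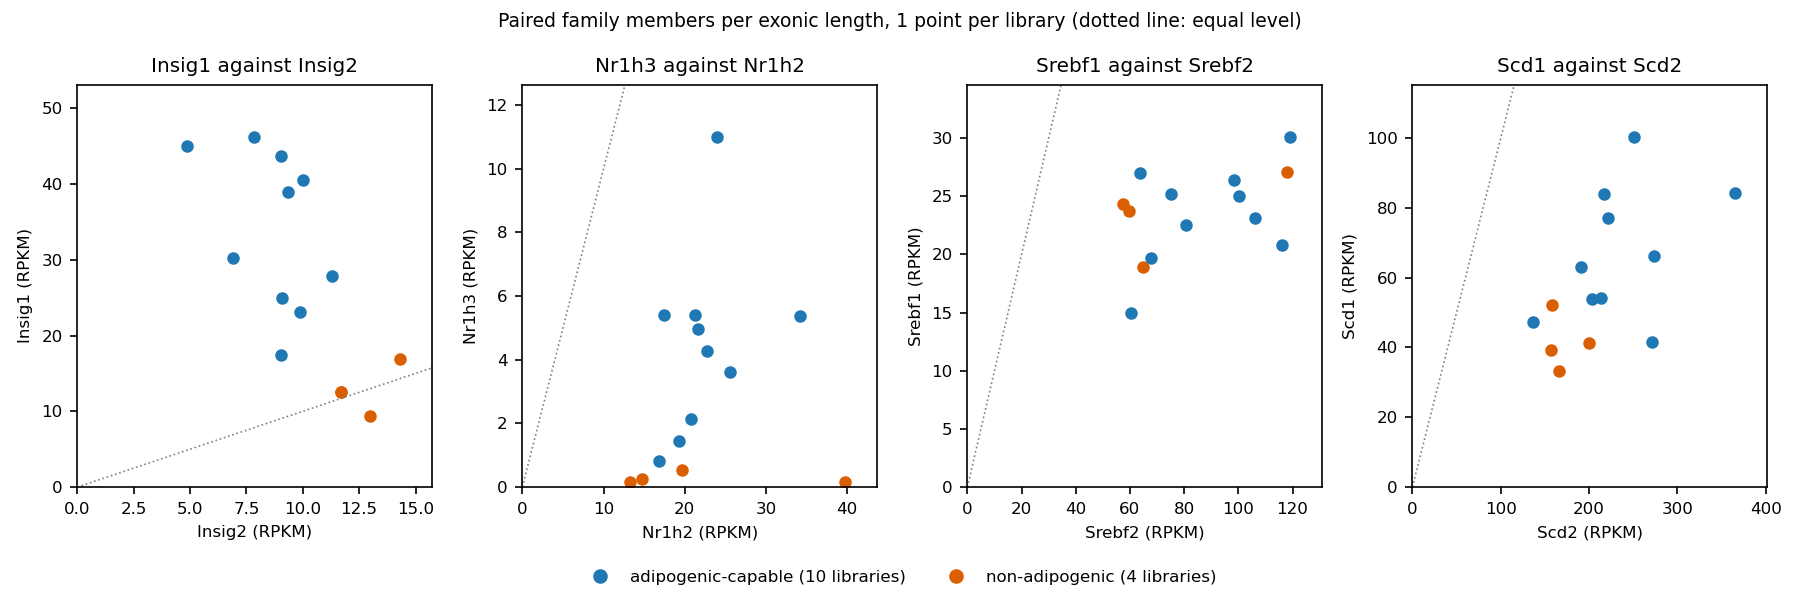
Level per exonic length (RPKM) of the paired genes Insig1 and Insig2, Nr1h3 and Nr1h2, Srebf1 and Srebf2, and Scd1 and Scd2, 1 point per library, with a dotted line where both are equal. The non-adipogenic points lie near the line for Insig1 and Insig2 (O3 and OC3 coincide), with ratios of 0.728 to 1.18, while the adipogenic-capable points lie above it at 1.92 to 9.23; Srebf and Scd points of the 2 arms mix.

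The genes of the transcription factors themselves did not pass either tool's threshold. Srebf1 was at 153, 134, 107 and 137 CPM in O1, O2, O3 and OC3, against 84.5 to 169.7 CPM with a median of 135 CPM (log2 fold change 0.00 ± 0.16). Srebf2, which favours cholesterol genes, was at 591, 298, 324 and 286 CPM against 301 to 595 CPM with a median of 447 CPM (log2 fold change 0.24 ± 0.24, and 0.55 without O1). Neither arm stood apart from the other for either gene, and the edgeR adjusted p were 0.998 and 0.783. The escort gene Scap was at 174 ± 41.9 CPM (SD, n = 10) and 173 ± 64.9 CPM (SD, n = 4). Its level was 269 CPM in O1 and 132, 160.1 and 133 CPM in O2, O3 and OC3. Stard4, a carrier of free cholesterol, was at 9.92, 38.4, 26.5 and 31.0 CPM against 22.1 to 76.9 CPM with a median of 49.7 CPM, and its log2 fold change of 0.88 ± 0.34 had an edgeR adjusted p of 0.299.

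Of the 9 fatty acid genes, 8 had an unadjusted edgeR p under 0.05 (against 12.1% of all genes), all with higher means in the adipogenic-capable libraries, and none passed the adjusted edgeR threshold. DESeq2 called 3 (against 3.51%). Fads1, a front-end desaturase of polyunsaturated fatty acids, was at 218, 192, 202 and 201 CPM in O1, O2, O3 and OC3, and ran from 272 CPM in A3 through a median of 332 CPM to 561 CPM in OA2. It was the only gene of the 9 whose arms did not overlap, with a log2 fold change of 0.78 ± 0.18 (edgeR adjusted p = 0.0882, DESeq2 adjusted p = 0.00409). Its neighbour in the pathway, Fads2, was at 142, 115, 117 and 119 CPM against 131 to 254 CPM with a median of 171 CPM. Fads2 overlapped through O1, and its log2 fold change was 0.53 ± 0.18 (edgeR adjusted p = 0.240).

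Acly, which makes cytosolic acetyl-CoA from citrate for both pathways, was at 294, 244, 273 and 222 CPM against 275 to 481 CPM with a median of 366 CPM. Acaca, the acetyl-CoA carboxylase that commits it to fatty acids, was at 27.9, 49.6, 43.1 and 45.6 CPM against 49.2 to 72.1 CPM with a median of 61.1 CPM. Fasn, the fatty acid synthase, was at 349, 473, 380.4 and 374 CPM against 413 to 1003 CPM with a median of 562 CPM. In each gene 8 or 9 of the 10 adipogenic-capable libraries were above all 4 others, and the overlap came from O1 for Acly and from O2 for Acaca and Fasn. Log2 fold changes were 0.51 ± 0.15, 0.57 ± 0.16 and 0.63 ± 0.22, with edgeR adjusted p of 0.176, 0.150 and 0.246.

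Scd1, the inducible stearoyl-CoA desaturase of fat, was at 252, 190.3, 161 and 199.9 CPM against 201 CPM in OA1 through a median of 313 CPM to 485 CPM in A1. Scd2, the isoform per length the most abundant of the 34 genes (median 208 RPKM), was at 861, 858, 906 and 1090.3 CPM against 741 CPM in A2 through a median of 1195 CPM to 1989 CPM in OAC1. Elovl5, which lengthens polyunsaturated chains, was at 50.7, 64.9, 70.4 and 72.2 CPM against 62.5 to 109 CPM with a median of 88.1 CPM. All 3 overlapped, with log2 fold changes of 0.69 ± 0.23, 0.46 ± 0.21 and 0.42 ± 0.17 and edgeR adjusted p of 0.214, 0.390 and 0.320. Elovl6, which lengthens saturated chains, had a log2 fold change of -0.13 ± 0.53 and spread widely, from 4.28 CPM in OA2 to 70.5 CPM in AC3.

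By library, the genes' median log2 deviation from the mean of all 14 was -0.53 to -0.36 in the non-adipogenic libraries and -0.08 to 0.55 in the adipogenic-capable ones. The lowest of the latter was OA3 and the highest OA2. By role, the medians of the fatty acid genes did not overlap (-0.44 to -0.34 against -0.12 to 0.46), and neither did those of the efflux and receptor genes (-3.08 to -0.92 against -0.37 to 1.59). The latter medians include Nr1h3 and Abcg1, which passed the filter on low counts only through the adipogenic-capable libraries. Their separation is therefore no independent support. The mevalonate and squalene medians (-0.73 to -0.36 against -0.36 to 1.05) met at O3 and A2, and the lanosterol and sensing medians overlapped.

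**Figure D4:**
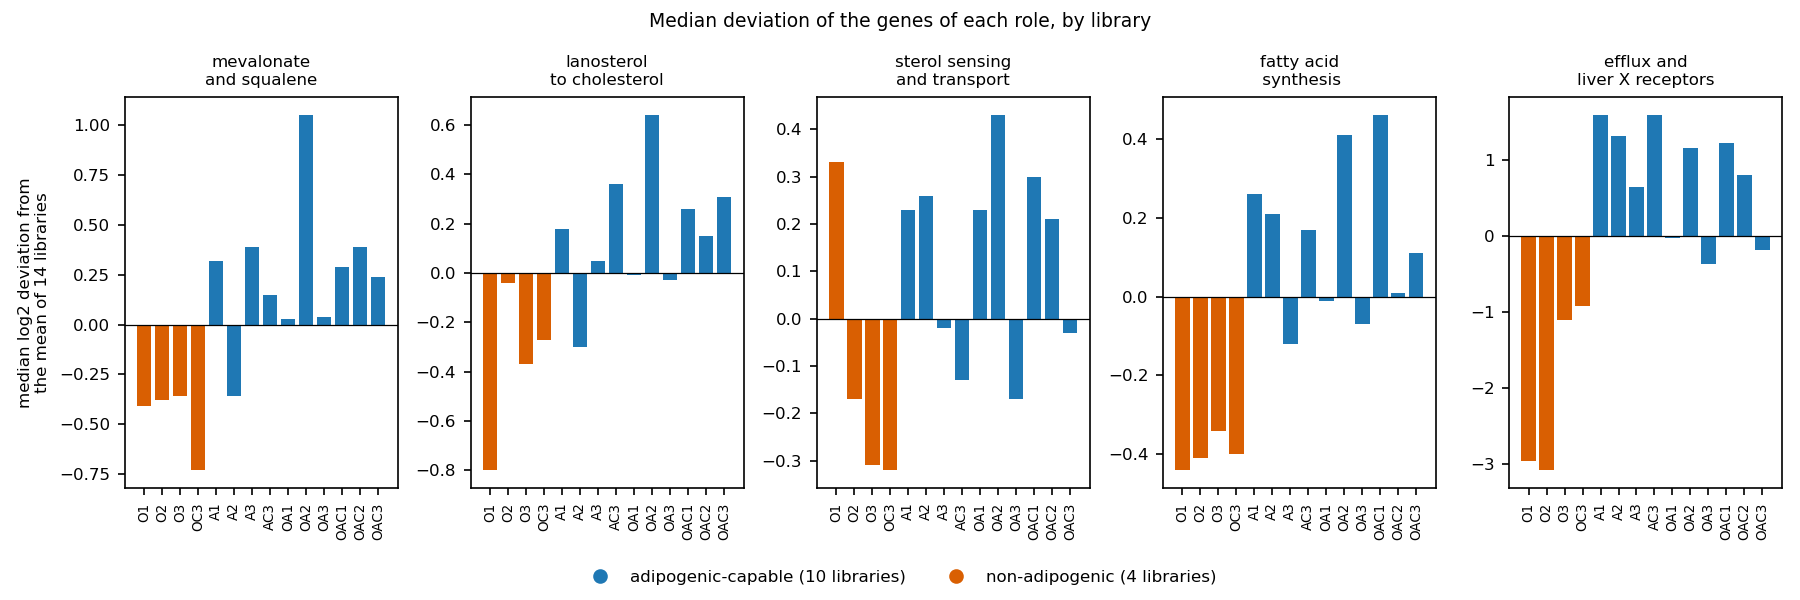
Median log2 deviation of the genes of each role from the mean of the 14 libraries (bars, 1 per library, with a vertical scale of its own for each role). The 4 non-adipogenic bars are all below 0 except for sensing in O1 (0.33), and OA2 is the highest bar in the mevalonate and squalene role (1.05).

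As a description over 14 libraries that share depth, GC trend and clone history, the 15 sterol synthesis genes had a median pairwise Spearman rho of 0.52, and of 0.51 with each library's GC trend removed. The 9 fatty acid genes had 0.56, all 34 genes 0.40 and the 6 sensing genes -0.18. The difference between the arms enters these values, and no such median was computed for all genes tested. With Nr1h3 the closest genes were Acly (rho 0.87), Nsdhl (0.82), Insig1 and Acaca (0.80 each). Within the 10 adipogenic-capable libraries alone these values were 0.79, 0.54, 0.49 and 0.59. The genes closest to Insig1 were Fasn (0.88), Sqle and Abcg1 (0.84 each), and Insig2 ran opposite (-0.74 over 14 libraries, -0.37 within 10).

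Both edgeR calls depended on single libraries and on the design. Each was lost when the 6 potentials had means of their own (adjusted p = 0.0918 for Nsdhl and for Nr1h3), and when any of O1, O2, O3, OC3, A1, A2, A3, AC3, OAC1 or OAC2 was left out, with adjusted p between 0.0513 and 0.163. The Nsdhl call was also lost without OAC3 (0.0543) or with a GC correction (0.0768), under which the Nr1h3 call was kept (0.0346). The fold changes moved less: without 1 library the log2 values were 1.16 to 1.32 for Nsdhl and 3.73 to 4.56 for Nr1h3.

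Clones able to form only fat were then set against clones able to form only bone, A vs O, in the fit with 6 group means. This comparison and the next pair use the same 3 O libraries and lie inside the comparison above, so their values are given side by side and are no separate evidence. edgeR called 0 of the 34 genes, against 0.00720% of genes. An unadjusted edgeR p under 0.05 was reached by 12 (against 9.89%), of which 11 had a higher level in A (against 4.97%) and 1 a lower level (against 4.92%). Without O1, 7 were higher (against 4.62%). DESeq2 called Nr1h3, Abca1 and Nsdhl (3 of 34, against 3.03% of genes). Libraries of A and O did not overlap for 14 genes (against 15.6%), 13 higher in A (against 8.28%) and 1 lower (against 7.36%).

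The highest log2 fold changes of the 34 were those of Nr1h3, Abcg1 and Abca1. Abca1 was at 46.0, 59.3 and 36.6 CPM in A1, A2 and A3, all above the O values of 2.29, 1.82 and 9.78 CPM, with a log2 fold change of 3.35 ± 0.65 (edgeR adjusted p = 0.160, and 4.52 with an adjusted p of 0.0374 without O3). Nr1h3 was at 27.7, 13.6 and 12.5 CPM in the A libraries, with no overlap and a log2 fold change of 4.60 ± 0.86 (edgeR adjusted p = 0.151), or 5.49 without O3. Abcg1 was at 5.09, 3.32 and 0.419 CPM in A1, A2 and A3 against 0, 0 and 0.412 CPM in O, so that A3 and O3 nearly met. The sterol synthesis genes were nearer to level here: 12 of 15 had a positive log2 fold change (against 47.6% of genes), with a median of 0.36. An unadjusted edgeR p under 0.05 was found for 3 of the 15 (Mvd, Tm7sf2 and Nsdhl), against 9.89% of genes. Insig2 was again lower in all 3 A libraries, at 27.2, 24.0 and 34.3 CPM (log2 fold change -0.66 ± 0.26, edgeR adjusted p = 0.441). The median of the 34 genes was 0.52, beside -0.03 for all genes.

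For OA vs O edgeR called 0 of the 34, as it called 0% of all genes. An unadjusted edgeR p under 0.05 was reached by 15 (against 5.43%), 14 with a higher level (against 3.20%) and 1 with a lower level (against 2.24%). DESeq2 called 1, Nr1h3, against 0.303% of genes, and 14 genes did not overlap (against 8.20%), 13 of them higher (against 4.56%) and 1 lower (against 3.63%). Without O1, 9 were higher at an unadjusted edgeR p under 0.05 (against 4.43%) and 20 were higher without overlap (against 1665 of 13822 genes). Nr1h3 was at 5.41, 13.5 and 2.06 CPM in OA1, OA2 and OA3, all above O (log2 fold change 3.24 ± 0.81, edgeR adjusted p = 0.851). Abca1 was at 10.1, 6.75 and 13.0 CPM and overlapped with O3 (1.09 ± 0.61, edgeR adjusted p = 0.948). All 15 sterol synthesis genes had a positive log2 fold change (against 43.0% of genes), with a median of 0.67. The count by p leaned on OA2: without it 5 genes in place of 14 were higher at an unadjusted p under 0.05 (against 1.40% of genes). The median of the 34 was then 0.35 in place of 0.59. The count without overlap did not fall, with 15 genes higher in place of 13 (against 5.86% of genes).

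For OAC vs O edgeR again called 0 of the 34 and 0% of all genes, and 15 had an unadjusted p under 0.05 (against 6.02%), all 15 with higher levels (against 3.20%) and 0 lower (against 2.82%). A positive log2 fold change was found for 31 of 34, against 44.7% of genes. DESeq2 called Nr1h3, Abcg1 and Abca1 (3 of 34, against 0.728% of genes). Here 22 genes were higher without overlap (against 5.74%) and 1, Insig2, lower (against 5.79%). Abca1 was at 40.2, 18.8 and 19.6 CPM in OAC1, OAC2 and OAC3, Abcg1 at 15.8, 9.80 and 1.07 CPM, and Nr1h3 at 9.13, 10.7 and 3.63 CPM. Each lay above all 3 O libraries. For Abca1 and Nr1h3 the log2 fold changes were 2.49 ± 0.63 and 3.40 ± 0.81, with an edgeR adjusted p of 0.730 for each, and without O3 they were 3.67 and 4.29. No fold is given for Abcg1, which had no read in O1 and O2. Hsd17b7 was at 71.5, 105 and 52.9 CPM against 17.6, 47.4 and 35.3 CPM in O (log2 fold change 1.19 ± 0.35, edgeR adjusted p = 0.730). The median of the 34 genes was 0.62, beside -0.06 for all genes, and without O1 10 genes in place of 15 were higher at an unadjusted p under 0.05 (against 3.07%).

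The A and OA groups, both able to form fat, were compared after their values had been seen, because Abca1 separated them. Its values there are a description: all 3 A libraries were at 36.6 CPM or more and all 3 OA libraries at 13.0 CPM or less. edgeR called 0 of the 34, against 0.00720% of genes, and DESeq2 called 1, the gene on which the comparison was chosen, against 0.937%. An unadjusted edgeR p under 0.05 was reached by 2 (against 5.27%), Abca1, higher in A (against 2.29%), and Dhcr7, lower (against 2.99%). Dhcr7 was at 23.3, 18.1 and 19.3 CPM in A1, A2 and A3 and at 31.2, 71.3 and 26.7 CPM in OA1, OA2 and OA3 (log2 fold change -1.09 ± 0.35, edgeR adjusted p = 0.714, and -0.51 without OA2). Groups did not overlap for 5 of the 34, against 11.0% of genes, and without OA2 for 10 higher in A (against 12.4%) and 3 lower (against 11.3%). The median of the 34 genes was -0.08, and it was 0.19 without OA2.

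Other genes of the pathways were taken from 2 lists. Of 17 further sterol genes, all tested, edgeR called 0 in the main comparison (against 0.180% of genes), 8 had an unadjusted p under 0.05 and a higher level (against 6.98%), 0 a lower level (against 5.15%), and DESeq2 called 4 (against 3.51%). Among the 8 were Acat2, which starts the mevalonate pathway (29.8, 40.3, 31.8 and 29.6 CPM in O1, O2, O3 and OC3 against 42.8 to 113 CPM, log2 fold change 1.07 ± 0.22, edgeR adjusted p = 0.0695), and Mylip, a ubiquitin ligase gene that is a liver X receptor target (17.8, 17.4, 26.3 and 24.7 CPM against 27.4 to 55.1 CPM, 0.92 ± 0.21, edgeR adjusted p = 0.0947). In both genes the arms did not overlap. Sc4mol, a later step of synthesis, also did not overlap (0.95 ± 0.28, edgeR adjusted p = 0.157), and Lpcat3 and Npc2 overlapped with log2 fold changes of 0.61 and 0.59.

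Of 27 further fatty acid genes 20 were tested and edgeR called 0. Near the share of all genes (6.98% higher and 5.15% lower), an unadjusted edgeR p under 0.05 was reached by 1 higher, Acss2, which makes acetyl-CoA from acetate (1.07 ± 0.28), and 2 lower, the elongase gene Elovl7 (-1.85 ± 0.49) and the malic enzyme gene Me1 (-0.50 ± 0.13). DESeq2 called these 3, against 3.51% of genes. Their edgeR adjusted p were 0.120, 0.127 and 0.127, and the arms overlapped in each. The median log2 fold change was 0.04 for the 20 fatty acid genes and 0.40 for the 17 sterol genes.

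Exons of 9 of the 34 genes overlap those of another gene in a GENCODE annotation of a later build, 5 of them those of a protein-coding gene: Cyp51, Fdft1, Fdps, Srebf1 and Tm7sf2. The overlap is on the same strand for Fdps and Tm7sf2 and on the opposite strand for the other 3. How the counting treated strand and shared exons is not given in the sources used here, so the counts of these genes are uncertain.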

How the data were processed

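RNA levels of 14 libraries were read from whole-number counts per gene that the authors deposited in 1 table, with exonic lengths in the same table. Per the labels' protocols, strand-specific libraries were prepared from oligo(dT)-enriched mRNA. The authors' tools, per the submitters' processing notes, included CASAVA 1.8.0 and bedtools 2.11, and the build was mm9. Aligner, read filters and strand setting: not given in the sources used here. Columns were matched to samples by their names.

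A gene was tested where 3 or more of the 14 libraries reached 1 CPM (13896 of 23331 genes), with edgeR 4.0.16 in R 4.3.3 (quasi-likelihood F test, robust, TMM, Benjamini-Hochberg over all tested genes, threshold 0.05). The main comparison had 2 group means and 12 residual degrees of freedom, and the comparisons between groups of 3 had 6 group means and 8. SE is the absolute log2 fold change over the square root of F. CPM were computed from the counts with TMM library sizes, and RPKM also with the exonic length. DESeq2 1.42.0 and voom with quality weights (limma 3.58.1) were alternatives, beside median-of-ratios scaling, no filter, a GC offset, a replicate block, single clones, pools, and leaving out libraries. For the main comparison and A vs O, edgeR, DESeq2 and voom were checked on simulated counts, where DESeq2 called unchanged genes above its nominal rate. The other comparisons and the other alternatives were not simulated. Total counts were 16888190 to 26076539 per library; the common dispersion between libraries was 0.271, to which counting error adds little except for genes near 0.

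The 35 genes, the marker and pathway lists and the tests were chosen with earlier results of these data known. Values in every library, or the lowest, median and highest of 10, are given for the control genes and for every gene with an unadjusted p under 0.05 in any of the 4 comparisons set out in the design; A vs OA was added later. Promoters come from RefSeq (GRCm38.p6), were matched by symbol, and were not joined to the counts by coordinates. No 2 libraries held identical counts. Some genes of the further pathway lists enter the counts but are not reported here by name.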

Additional observations from a re-analysis of the deposited data

Results flagged for a closer look

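For each of the 34 genes and each arm, the lowest and the highest library was compared with its nearest neighbour by Dixon's criterion at 95%, which chance passes in about 1 of 20 groups. Of 68 gene and arm pairs 6 passed, 3 through O1 and 3 through OA2, the libraries with the lowest precision weights. Among the 4 non-adipogenic libraries, O1 was low for the elongase gene Elovl6 (8.46 CPM, nearest 30.4 CPM), high for the desaturase gene Fads2 (142 CPM, nearest 119 CPM) and without a read for the isomerase gene Idi1 (0 CPM, nearest 1.61 CPM). Among the 10 adipogenic-capable libraries, OA2 was high for Fads1 (561 CPM, nearest 390.3 CPM) and for the squalene synthase gene Fdft1 (156 CPM, nearest 106 CPM), and low for the desaturase gene Sc5d (19.6 CPM, arm median 40.1 CPM). No cause of these values was tested.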

How the results depend on the processing

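The members' median log2 fold change was above 0 in all 26 alternatives of the main comparison (0.49 to 0.67) and in all 14 of A vs O (0.40 to 0.56), OA vs O (0.35 to 0.68) and OAC vs O (0.55 to 0.71), while the calls moved. The 5 comparisons are named here in the order main, A vs O, OA vs O, OAC vs O and A vs OA. DESeq2 called 485, 420, 42, 101 and 130 genes and 10, 3, 1, 3 and 1 of the 34. Voom with quality weights called 716 genes and 14 of the 34 in the main comparison and 151 and 3 in A vs O. In the main comparison edgeR called 1 gene and 0 of the 34 with 6 group means, and 0 and 0 with additive potentials, with single clones alone, with pools alone, and without both O1 and OA2. A GC offset gave 55 genes in the main comparison and 2 in A vs O, and with the replicate block 57 in the former. No filter gave 2 genes in A vs O and 2 in A vs OA. Without both O1 and OA2, A vs O had 3 genes, A vs OA 2, and the median of OA vs O was 0.35. The A vs OA median of -0.08 changed sign to 0.17 without both, to 0.02 with voom and to 0.19 without OA2.

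Leaving out 1 library at a time gave 0 to 51 genes and 0 to 3 members called in the main comparison (median 0.51 to 0.67), 0 to 4 and 0 to 1 in A vs O (0.40 to 0.55), 0 and 0 in OA vs O (0.35 to 0.68) and in OAC vs O (0.55 to 0.71), and 0 to 1 and 0 in A vs OA (-0.29 to 0.19). Same-numbered libraries deviated together in 11 of 18 pairs only (r from -0.58 to 0.76), among them all 6 pairs of the pools (0.29 to 0.76), and 7 of 12 libraries correlated best with their own number, so the numbers were not taken to pair the libraries as a whole. With the replicate block the main comparison had 24 genes and 2 members called (median 0.56), now Nsdhl and Insig1 (adjusted p = 0.0474), with Nr1h3 at 0.0649.

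Depth limits what can be said of Abcg1 and Nr1h3 in the non-adipogenic libraries and of Idi1 in all, where values lie near 0.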
